A study of Mus musculus with 12 samples.

Results

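Solute carriers are membrane proteins that move nutrients, ions, metals, vitamins and metabolic intermediates across the plasma membrane and the membranes of mitochondria, lysosomes and the Golgi. The genes described here are 155 of the 35976 gene symbols counted in mouse embryonic stem (ES) cells. They carry a symbol of the form Slc, family number, letter and member number, and averaged at least 5 CPM (counts per 1000000 counts of a library) over the 12 libraries. Of 359 symbols of that form, 193 lay below the minimum, 25 of them with no count in any library, and 11 at or above it were left out by name (such as Slc7a5, Slc3a2 and Slc16a1). Members were chosen by their mean level over all libraries and by no difference between groups, so levels are given as description. Just inside the minimum were Slc43a3 and Slc1a3, at 5.14 and 5.37 CPM, and just outside it Slc44a4 and Slc45a3, at 4.42 and 4.39 CPM.

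The study asked how expression of the N1300T mutant of Tet2, or knockout of Tet2, alters the RNA of V6.5 ES cells (V6,5 in the labels), beside cells with Tet2 intact. TET enzymes oxidise 5-methylcytosine in DNA. All 12 libraries carried a knockout of Tet1 by their genotype labels, and 4 groups of 3 libraries, lettered A, B and C, were labelled as follows. N1300T 49 and N1300T 81 both had the genotype Tet1KO Tet2 N1300T, DKO (numbered 41) had Tet1 Tet2 DKO, and Tet1KO had Tet1 KO with Tet2 intact. No source used here says what 41, 49 and 81 mean, and 49 and 81 are called preparations. N1300T without a number means the mean of both. All cells were untreated and grew on gelatin in medium with 15% serum, 1000 U/ml LIF, 3 μM CHIR99021 (a GSK3 inhibitor) and 1 μM PD0325901 (a MEK inhibitor). No label says that the lettered libraries were separate cultures, and p-values then reflect only how these libraries vary, which may be technical. DKO and Tet1KO are each 1 set of 3 libraries, so genotype cannot be told apart from other properties of those cells.

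The libraries held 31515011 (N1300T 49 C) to 57054862 (DKO A) counts, and the members together took 0.840% to 0.910% of them. Tet1 reads were present in every library at 129.95 to 184.6 CPM, and Tet2 had 136, 143 and 123 CPM in N1300T 49, 155, 139 and 130.2 CPM in N1300T 81 and 95.5, 92.96 and 100.3 CPM in DKO, against 177, 157 and 143 CPM in Tet1KO, so gene-level counts, which can include reads outside a deleted or altered part, do not check the genotypes. All 8 ES cell markers were detected, with summed levels of 6658 to 6838 CPM in N1300T 49, 6483 to 6828 CPM in N1300T 81 and 6075 to 6477 CPM in DKO, against 6507 to 6703 CPM in Tet1KO. Of these markers, Tfcp2l1 was called lower in DKO than in Tet1KO. Fibroblast markers summed to 9.54 to 11.5 CPM in N1300T 49, 10.4 to 14.6 CPM in N1300T 81 and 11.7 to 14.3 CPM in DKO, against 10.3 to 11.8 CPM in Tet1KO, and Dcn, Lum and Postn were at 0 in most N1300T libraries. Against Tet1KO, Pdgfrb was called lower in N1300T and Col1a1 higher in DKO, and both calls were lost without Tet1KO A. Mesendoderm markers summed to 49.8 to 52.5 CPM in N1300T 49, 43.6 to 55.99 CPM in N1300T 81 and 55.7 to 61.5 CPM in DKO, against 39.01 to 43.7 CPM in Tet1KO, and neuroectoderm markers to 43.5 to 47.2 CPM in N1300T 49, 40.1 to 43.3 CPM in N1300T 81 and 42.9 to 47.7 CPM in DKO, against 36.5 to 38.6 CPM in Tet1KO. Of the mesendoderm markers, T and Gsc were called higher in N1300T and T in DKO, against Tet1KO. Of the neuroectoderm markers, Nes and Pax6 were called higher in N1300T (1 gene without Tet1KO A) and Pax6 in DKO. Primitive endoderm markers summed to 10.2 to 11.8 CPM in N1300T 49, 7.22 to 7.62 CPM in N1300T 81 and 8.41 to 10.2 CPM in DKO, against 5.58 to 5.95 CPM in Tet1KO, with 3 of 6 genes higher and 1 lower in N1300T (1 and 0 without Tet1KO A) and Gata4 alone called, as higher, in DKO against Tet1KO. Trophoblast markers summed to 100.1 to 118 CPM in N1300T 49, 123 to 128 CPM in N1300T 81 and 148 to 154 CPM in DKO, against 113 to 129 CPM in Tet1KO. Elf5 was at 0 in all N1300T libraries, and Cdx2, Krt8 and Krt18 were higher in DKO than in Tet1KO. Cdx2 was also higher in N1300T than in Tet1KO, and Krt8 and Krt18 were lower in N1300T than in DKO. The part of these shifts in the results below was not tested. Tet1KO libraries also stood apart over whole chromosomes, Tet1KO A most. Relative to the mean of all libraries, the median gene of chromosome 6 was at -0.04 to -0.02 (log2) in N1300T and -0.04 to -0.03 in DKO, against 0.07 to 0.18 in Tet1KO. That of chromosome 8 was at -0.04 to -0.01 in N1300T and -0.03 to -0.00 in DKO, against 0.05 to 0.13 in Tet1KO, and that of chromosome 11 at 0.01 to 0.06 in N1300T and 0.01 to 0.02 in DKO, against -0.12 to -0.03 in Tet1KO. When each chromosome was scaled on its own, the N1300T calls of Slc18b1, Slc20a2, Slc25a51, Slc31a1, Slc38a7 and Slc43a2 and the DKO calls of Slc20a2, Slc25a1, Slc36a1 and Slc38a7 against Tet1KO were lost. In these bulk libraries, fewer cells of a type and less RNA per cell cannot be told apart.

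Solute carriers set which nutrients a cell takes up: amino acid carriers feed protein synthesis, mitochondrial carriers link the cytosol to respiration, and metal, folate and vitamin C carriers supply cofactors of many enzymes, TET enzymes among them. Many of their genes start in stretches rich in CG, the dinucleotide whose cytosine is methylated in mammals and oxidised by TET enzymes. Of the 155 members, 114 matched a RefSeq promoter (build GRCm38.p6), giving 156 windows of 250 bases ahead of a start. Their median CG count was 13, against 6 over all 32851 windows of that length, and every member window held at least 1 CG, against 92.1% of all windows. All windows include those of genes at any level, whereas members averaged at least 5 CPM. Windows of other genes of that level were not compared, so level and family cannot be told apart here. Windows of members called higher in N1300T against Tet1KO had a median of 16, and so did those called lower. In DKO against Tet1KO the medians were 16 for members called higher and 13 for those called lower. Shown here are windows of 1 member higher and 1 member lower in both genotypes than in Tet1KO, and of the 2 members called between the N1300T preparations, because CG is where TET enzymes act. No methylation was measured. Each is written 5′ to 3′ on the gene's strand with CG in capitals.
Slc43a1, chr2:84840073-84840322, plus strand, 24 CG: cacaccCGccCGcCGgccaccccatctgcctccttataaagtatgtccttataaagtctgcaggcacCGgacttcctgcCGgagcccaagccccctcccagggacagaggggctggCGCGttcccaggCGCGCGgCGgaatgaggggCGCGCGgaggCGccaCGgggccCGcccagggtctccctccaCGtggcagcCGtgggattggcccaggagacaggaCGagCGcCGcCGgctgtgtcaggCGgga
Slc25a33, chr4:149774268-149774517, minus strand, 23 CG: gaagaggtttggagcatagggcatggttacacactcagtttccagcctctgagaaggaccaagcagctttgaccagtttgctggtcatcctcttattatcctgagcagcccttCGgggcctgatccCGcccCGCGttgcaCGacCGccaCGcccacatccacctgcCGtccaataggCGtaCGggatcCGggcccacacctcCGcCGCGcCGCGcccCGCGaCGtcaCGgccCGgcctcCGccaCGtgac
Slc35c1, chr2:92459795-92460044, minus strand, 14 CG: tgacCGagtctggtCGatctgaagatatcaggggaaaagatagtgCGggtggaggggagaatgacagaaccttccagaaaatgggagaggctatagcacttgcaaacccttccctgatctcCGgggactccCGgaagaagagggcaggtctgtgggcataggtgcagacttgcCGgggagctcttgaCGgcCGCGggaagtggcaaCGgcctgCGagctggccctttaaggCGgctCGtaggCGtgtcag
Slc35c1, second start, chr2:92460519-92460768, minus strand, 11 CG: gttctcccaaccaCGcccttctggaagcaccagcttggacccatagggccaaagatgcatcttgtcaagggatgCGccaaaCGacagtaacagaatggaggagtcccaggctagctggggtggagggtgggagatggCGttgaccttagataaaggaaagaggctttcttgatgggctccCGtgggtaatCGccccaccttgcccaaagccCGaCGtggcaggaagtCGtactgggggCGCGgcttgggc
Slc38a4, chr15:97055957-97056206, minus strand, 3 CG: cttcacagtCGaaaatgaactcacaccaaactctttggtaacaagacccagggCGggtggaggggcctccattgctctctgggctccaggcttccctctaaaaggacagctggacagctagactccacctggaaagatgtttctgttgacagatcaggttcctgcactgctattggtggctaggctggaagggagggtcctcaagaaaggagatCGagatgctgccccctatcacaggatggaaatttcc
The Slc38a4 window holds few CG for a member, and the other 2 RefSeq starts of that gene have 5 each. A pattern of letters, TGATGNAA, the composite bound by C/EBP and ATF factors at amino acid response genes, was searched on both strands. It stood in 1.92% of member windows (3 windows, of Slc50a1 and Slc7a7), against 3.45% of all windows. The Slc7a7 windows with the pattern overlap each other. Amino acid carriers left out by name, such as Slc7a5, are not among the members, so this share does not describe amino acid carriers as a whole.

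In CPM per kilobase of exon, mitochondrial carriers led the family. Averaged over the 12 libraries, Slc25a5, the adenine nucleotide translocator that exchanges ADP for ATP, had 355 CPM per kb, and Slc25a3, the mitochondrial phosphate carrier, had 114. They were followed by Slc25a39 (90.3 CPM per kb), a carrier needed for mitochondrial glutathione, Slc39a7 (82.5), a zinc transporter of the endoplasmic reticulum, and Slc29a1 (79.7), the equilibrative nucleoside transporter ENT1. Neither Slc25a5 nor Slc25a3 was called in N1300T or DKO against Tet1KO. In CPM, Slc25a5 averaged 579 ± 35.8 CPM in N1300T 49, 584 ± 17.2 CPM in N1300T 81 and 579 ± 11.04 CPM in DKO, against 598 ± 43.7 CPM in Tet1KO, and Slc25a3 averaged 646 ± 18.3 CPM in N1300T 49, 642 ± 32.2 CPM in N1300T 81 and 619.8 ± 16.4 CPM in DKO, against 612 ± 22.2 CPM in Tet1KO (SD, n = 3 each). Within groups, the median coefficient of variation of the members was 7.21% in N1300T 49, 5.57% in N1300T 81, 4.04% in DKO and 7.26% in Tet1KO. The widest spread was that of Slc15a1, a peptide transporter, at 40.0% in N1300T 81, and of Slc29a4, at 29.8% in Tet1KO.

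In N1300T against Tet1KO, 39 of the 155 members were called (25.2%), 21 higher and 18 lower. In all 16014 genes tested 15.7% were called, 7.69% higher and 8.04% lower, and among tested genes averaging 5 CPM or more 17.2% were. In DKO against Tet1KO, 31 members were called (20.0%), 17 higher and 14 lower, beside 15.0% of all tested genes (7.86% higher, 7.12% lower) and 16.4% of those of 5 CPM or more. Calls are at an adjusted p under 0.05 (edgeR quasi-likelihood test, Benjamini-Hochberg over all tested genes). Both comparisons share the Tet1KO libraries. Changes were small. The median log2 fold change of members was 0.01 in both (all tested genes, 0.00 and -0.01), and their median absolute change was 0.13 and 0.14, against 0.10 and 0.11 in genes of 5 CPM or more. For 29 of the 39 N1300T calls and for all 31 DKO calls the libraries did not overlap with Tet1KO. How often called genes as a whole showed no overlap was not computed, so these counts show nothing particular to the members. Without Tet1KO A, 24 members (12 higher, 12 lower) were called in N1300T and 21 in DKO. Without DKO C, 19 were called in DKO. The 107 members called in neither lay between -0.52 (Slc15a1) and 0.33 (Slc2a8) in N1300T and between -0.73 (Slc15a1) and 0.46 (Slc5a1) in DKO. Scaling by library size alone gave 24 higher and 10 lower in DKO in place of 17 and 14. For runs with a library left out or another scaling, shares of all tested genes were not computed, so those counts show nothing particular to the members. Preparation 49 alone against Tet1KO gave 29 calls (15 higher, 14 lower, beside 10.9% of all tested genes), and preparation 81 alone gave 27 (16 and 11, beside 12.2%).

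**Figure D1:**
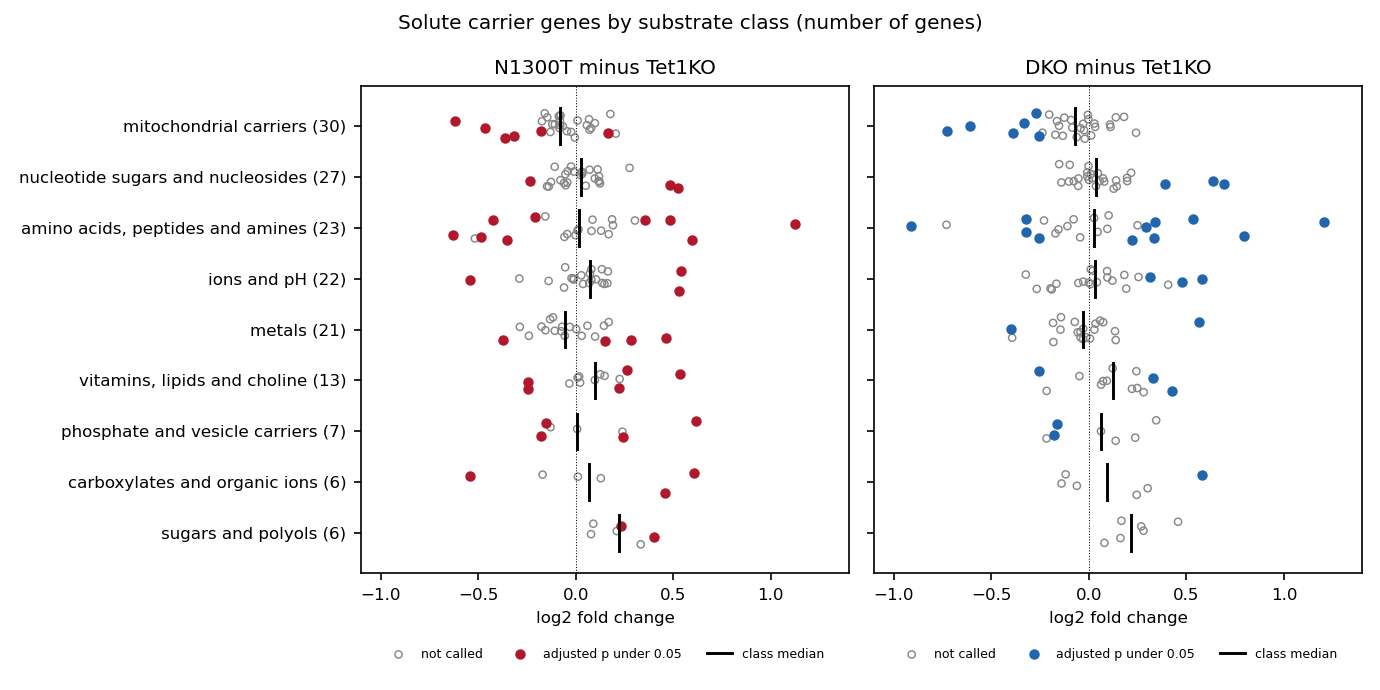
Log2 fold change of each of the 155 members against Tet1KO, in N1300T (left) and in DKO (right), by substrate class with the number of members. Filled points were called at an adjusted p under 0.05 and black bars are class medians. Mitochondrial carriers hold 5 lower calls and 1 higher in N1300T and 6 lower in DKO.

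Amino acid carriers feed protein synthesis, one-carbon metabolism and the mTOR pathway. The class of amino acid, peptide and amine carriers was drawn up by family, so that it holds Slc43a3, whose known substrates in human are purine nucleobases. Of its 23 members, 4 were higher and 5 lower in N1300T against Tet1KO, and 7 were higher and 4 lower in DKO. The 7 became 3 without DKO C. The class medians were 0.01 in N1300T and 0.03 in DKO on the log2 scale, and calls lay on both sides of them.

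Slc1a3, the glial glutamate transporter, averaged 6.78 ± 0.587 CPM in N1300T 49, 5.59 ± 0.878 CPM in N1300T 81 and 4.67 ± 0.391 CPM in DKO, against 4.41 ± 0.690 CPM in Tet1KO, and rose in N1300T by 0.48 ± 0.13 (adjusted p = 0.0192). Libraries of N1300T and Tet1KO overlapped and the call was lost without Tet1KO B (adjusted p 0.00459 to 0.106 over the alternatives). In DKO its value was 0.05 ± 0.15 (adjusted p = 0.881).

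The SLC43 family moved both ways, Slc43a1 up and Slc43a3 down at neighbouring loci of chromosome 2. Slc43a1 and Slc43a2 encode LAT3 and LAT4, sodium-independent carriers of large neutral amino acids such as leucine, whereas Slc43a3 is the purine nucleobase transporter named above. Slc43a1 (chr2:84838855-84863586) and Slc43a3 (chr2:84936545-84958509) lie 72958 bases apart. Slc43a1 had 16.2, 17.003 and 18.8 CPM in N1300T 49, 18.2, 18.6 and 18.1 CPM in N1300T 81 and 19.6, 21.2 and 21.95 CPM in DKO, against 10.4, 11.02 and 13.7 CPM in Tet1KO. All N1300T and DKO libraries were above all Tet1KO libraries, with changes of 0.60 ± 0.09 (adjusted p = 0.000126) in N1300T and 0.80 ± 0.10 (adjusted p = 2.83e-05) in DKO. Slc43a3 had 3.27, 4.20 and 3.90 CPM in N1300T 49, 5.22, 6.05 and 5.90 CPM in N1300T 81 and 3.72, 3.64 and 4.33 CPM in DKO, against 5.86, 7.46 and 8.11 CPM in Tet1KO. DKO libraries were all below Tet1KO ones, while those of preparation 81 reached the lowest Tet1KO library. Its changes were -0.63 ± 0.12 (adjusted p = 0.00151) in N1300T and -0.91 ± 0.14 (adjusted p = 0.000283) in DKO, with -0.92 ± 0.14 (adjusted p = 0.000404) in preparation 49 and -0.33 ± 0.14 (adjusted p = 0.123) in preparation 81. Slc43a2 had 12.6, 16.2 and 17.4 CPM in N1300T 49, 16.1, 17.2 and 16.2 CPM in N1300T 81 and 18.4, 19.3 and 17.5 CPM in DKO, against 10.3, 12.7 and 14.04 CPM in Tet1KO. It rose by 0.53 ± 0.12 (adjusted p = 0.00466) in DKO with no overlap, and by 0.36 ± 0.10 (adjusted p = 0.0247) in N1300T, where N1300T 49 A lay within the Tet1KO range. The N1300T call was lost without Tet1KO A and with each chromosome scaled on its own (adjusted p 0.00275 to 0.182).

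Slc38a1, Slc38a2 and Slc38a4, sodium-coupled carriers of glutamine and other small neutral amino acids, lie in 1 region of chromosome 15 and differed in direction. Slc38a1 (SNAT1, chr15:96571418-96643438) and Slc38a4 (SNAT4, chr15:96994816-97055956, imprinted in mouse with expression from the paternal copy) fell in both genotypes. Slc38a1 had 102, 109.8 and 117 CPM in N1300T 49, 118, 121 and 122 CPM in N1300T 81 and 131, 132 and 132 CPM in DKO, against 160.3, 159 and 161 CPM in Tet1KO. The 6 N1300T libraries lay below the 3 DKO libraries, and these below the 3 Tet1KO ones. It fell by 0.49 on the log2 scale in N1300T (SE 0.05, adjusted p = 1.60e-06) and by 0.32 in DKO (SE 0.05, adjusted p = 0.000578), and the difference of N1300T from DKO, -0.16 ± 0.05, had an adjusted p of 0.0557. Slc38a2 (SNAT2), the carrier induced by amino acid shortage, lies 43953 bases away. It had 292, 334 and 299.8 CPM in N1300T 49, 316, 304 and 276 CPM in N1300T 81 and 332, 317 and 354 CPM in DKO, against 275, 277 and 245 CPM in Tet1KO. It rose in DKO, by 0.29 ± 0.07 (adjusted p = 0.0117), a call lost without DKO C or without Tet1KO C (adjusted p 0.000181 to 0.0650), and was 0.19 ± 0.06 (adjusted p = 0.0558) in N1300T, where libraries overlapped.

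Slc38a4 was 1 of 2 members called between the N1300T preparations, where 0.362% of all tested genes were called, 0.169% lower in 49, and 0.413% of those of 5 CPM or more. It had 170.5, 179 and 171 CPM in N1300T 49, 229, 226 and 223 CPM in N1300T 81 and 209, 195 and 216 CPM in DKO, against 243, 249.7 and 262 CPM in Tet1KO. All 3 libraries of preparation 49 were below all others, and all N1300T and DKO libraries were below Tet1KO. Preparation 49 differed from preparation 81 by -0.37 ± 0.05 (adjusted p = 0.00151). Against Tet1KO, the values were -0.53 ± 0.05 (adjusted p = 4.86e-06) for preparation 49, -0.17 ± 0.05 (adjusted p = 0.0466) for preparation 81 and -0.32 ± 0.05 (adjusted p = 0.000532) for DKO. Slc38a7, a lysosomal exporter of glutamine and asparagine on chromosome 8, averaged 43.2 ± 2.42 CPM in N1300T 49, 44.3 ± 1.21 CPM in N1300T 81 and 43.3 ± 0.384 CPM in DKO, against 50.3 ± 2.77 CPM in Tet1KO. Its changes, -0.21 ± 0.05 (adjusted p = 0.0142) in N1300T and -0.25 ± 0.06 (adjusted p = 0.0116) in DKO, were both lost without Tet1KO A and with each chromosome scaled on its own, and the DKO call also without DKO C.

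Slc7a6 and Slc7a7 encode the y+LAT2 and y+LAT1 exchangers, which trade cationic for neutral amino acids and need the heavy chain encoded by Slc3a2. Slc7a6 had 46.2, 44.4 and 50.99 CPM in N1300T 49, 49.9, 42.4 and 52.3 CPM in N1300T 81 and 54.6, 53.7 and 59.1 CPM in DKO, against 67.04, 57.01 and 67.1 CPM in Tet1KO. N1300T libraries were all below Tet1KO, with a change of -0.42 ± 0.07 (adjusted p = 0.000562), whereas DKO libraries overlapped with Tet1KO, with -0.23 ± 0.08 (adjusted p = 0.0721). Slc7a6 lies on chromosome 8. Its changes were -0.32, still called, and -0.13 with each chromosome scaled on its own. Slc7a7 had 68.2, 62.5 and 76.9 CPM in N1300T 49, 61.7, 54.6 and 67.3 CPM in N1300T 81 and 82.1, 82.7 and 85.6 CPM in DKO, against 67.9, 56.8 and 67.9 CPM in Tet1KO. It was highest in DKO, at 0.34 ± 0.09 (adjusted p = 0.0125) against Tet1KO, a call lost without DKO C or Tet1KO B (adjusted p 0.000107 to 0.0627), and N1300T lay at 0.01 ± 0.07 (adjusted p = 0.929). Slc7a7 overlaps Oxa1l by 228 bases, and whether counting used strand is not given, so reads there cannot be told apart. Slc38a6 likewise overlaps Trmt5, by 237 bases. Slc38a6, a less characterised SLC38 member, and Slc36a1, a proton-coupled lysosomal amino acid transporter, completed the DKO rises with 0.33 ± 0.09 (adjusted p = 0.0236) and 0.22 ± 0.07 (adjusted p = 0.0483). Slc38a6 lost its call without DKO A, DKO C or Tet1KO A (adjusted p 0.0101 to 0.125), and Slc36a1 without most of the libraries in turn (adjusted p 0.0261 to 0.192).

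**Figure D2:**
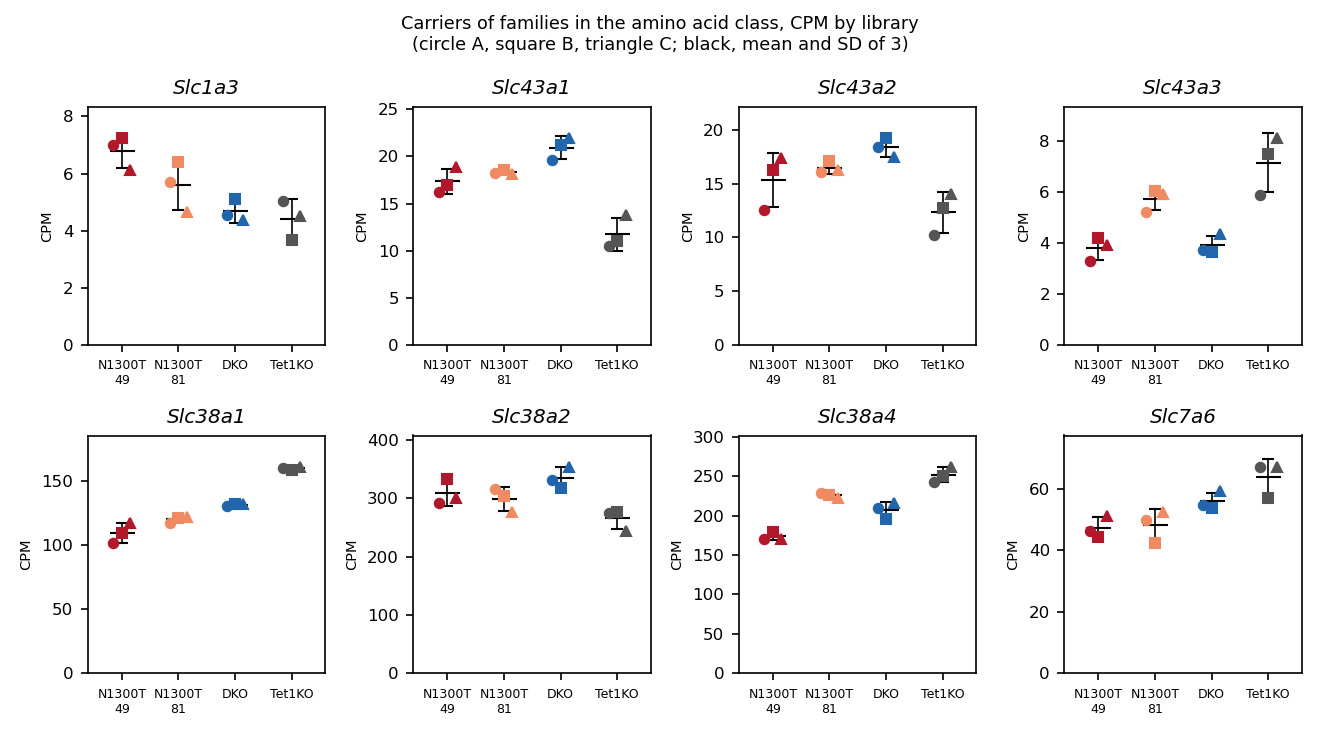
CPM of 8 members of the amino acid class, the nucleobase transporter Slc43a3 among them, in each library, by group, with the mean and SD of 3 libraries. Slc43a1 stands above Tet1KO in every N1300T and DKO library, Slc38a1 and Slc38a4 below it, and Slc43a1 and Slc43a3 lie on opposite sides of their Tet1KO levels.

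Mitochondrial carriers of the SLC25 family move metabolites across the inner membrane. Of 30 members, 1 was higher and 5 lower in N1300T against Tet1KO, and 6 were lower in DKO. No DKO rise was called in these counts or by DESeq2, and 2 had an unadjusted p under 0.05. Scaled by library size alone, edgeR gave 2 higher and 4 lower in DKO. The class medians were -0.08 and -0.07 (log2). The single N1300T rise, of Slc25a20, the carnitine-acylcarnitine carrier (0.17 ± 0.06, adjusted p = 0.0476), was lost without Tet1KO A, B or C and without several other libraries, as was the fall of the NAD carrier Slc25a51 (-0.18 ± 0.06, adjusted p = 0.0477).

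Slc25a4 (chr8:46207168-46211062) encodes ANT1, the ADP/ATP translocator prominent in heart and muscle. It had 149, 142 and 139.6 CPM in N1300T 49, 159, 152 and 161 CPM in N1300T 81 and 141, 142 and 135 CPM in DKO, against 225, 203 and 192 CPM in Tet1KO. All N1300T and DKO libraries lay below the lowest Tet1KO library. The log2 change was -0.46 ± 0.06 (adjusted p = 2.08e-05) in N1300T and -0.61 ± 0.07 (adjusted p = 9.82e-06) in DKO, so that the N1300T level was 0.725 and the DKO level 0.656 of Tet1KO. Its paralogue Slc25a5 was at -0.04 ± 0.05 (adjusted p = 0.628) and -0.09 ± 0.06 (adjusted p = 0.402). Slc25a33 (chr4:149744036-149774267), a pyrimidine nucleotide carrier, had 9.82, 9.49 and 10.6 CPM in N1300T 49, 10.2, 10.2 and 10.4 CPM in N1300T 81 and 10.8, 8.78 and 9.09 CPM in DKO, against 14.7, 15.9 and 15.9 CPM in Tet1KO. Groups did not overlap, and N1300T and DKO were -0.62 ± 0.08 (adjusted p = 4.88e-05) and -0.73 ± 0.09 (adjusted p = 6.18e-05) from Tet1KO.

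Slc25a13, citrin, the aspartate/glutamate carrier of the malate-aspartate shuttle, had 107, 110.3 and 102 CPM in N1300T 49, 113, 109 and 109 CPM in N1300T 81 and 112, 112 and 116 CPM in DKO, against 152, 131 and 133 CPM in Tet1KO. Its changes were -0.36 ± 0.06 (adjusted p = 0.000262) in N1300T and -0.33 ± 0.07 (adjusted p = 0.00222) in DKO. Slc25a15, the ornithine carrier of the urea cycle, had 46.4, 46.998 and 44.2 CPM in N1300T 49, 43.4, 44.8 and 44.8 CPM in N1300T 81 and 44.7, 45.5 and 41.8 CPM in DKO, against 60.8, 52.8 and 54.5 CPM in Tet1KO. Its changes were -0.32 ± 0.06 (adjusted p = 0.00133) and -0.39 ± 0.07 (adjusted p = 0.00104), and for both carriers the N1300T and DKO libraries were all below Tet1KO. Slc25a13 lies on chromosome 6 and Slc25a4 and Slc25a15 on chromosome 8, where Tet1KO libraries ran high as a whole. With each chromosome scaled on its own, the N1300T and DKO changes were -0.36 and -0.51 for Slc25a4, -0.22 and -0.19 for Slc25a13, and -0.21 and -0.29 for Slc25a15, all still called. Of 10 members on chromosome 8, 5 were lower in N1300T and 4 in DKO, beside 20.0% and 16.2% of the 796 tested genes of that chromosome. Over these few members no difference from the rest of the chromosome was tested. Among the 122 members off chromosomes 6, 8 and 11, 17 were higher and 10 lower in N1300T, and 13 were higher and 8 lower in DKO. The shares of all tested genes off these chromosomes were not computed, so these counts have no background beside them.

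Slc25a1, the citrate carrier, and Slc25a39 were the remaining DKO falls, at -0.27 ± 0.09 (adjusted p = 0.0469) and -0.25 ± 0.08 (adjusted p = 0.0484). Slc25a1 averaged 96.7 ± 8.47 CPM in N1300T 49, 111 ± 11.8 CPM in N1300T 81 and 91.9 ± 2.67 CPM in DKO, against 108 ± 10.8 CPM in Tet1KO. Both calls were lost without any 1 of DKO A, B and C or of Tet1KO A and B, with adjusted p values of 0.00224 to 0.185 for Slc25a1 and 0.00205 to 0.214 for Slc25a39 over the alternatives.

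Metal carriers were led by zinc transporters on opposite sides. Of 21 members 3 were higher and 1 lower in N1300T, and 1 was higher and 1 lower in DKO, with class medians of -0.06 and -0.03. The N1300T falls numbered 2 without any 1 of N1300T 49 B, N1300T 81 A, B and C and Tet1KO C, and the DKO falls 2 without Tet1KO B or C. Slc30a2 (chr4:134343046-134354484), ZnT2, loads zinc into vesicles. It had 80.6, 88.9 and 87.7 CPM in N1300T 49, 97.3, 103 and 96.1 CPM in N1300T 81 and 98.7, 103 and 101 CPM in DKO, against 63.7, 67.8 and 68.4 CPM in Tet1KO. All N1300T and DKO libraries were above Tet1KO, with changes of 0.46 ± 0.05 (adjusted p = 8.06e-06) in N1300T and 0.56 ± 0.06 (adjusted p = 5.35e-06) in DKO. Slc39a4 (chr15:76612383-76618506), ZIP4, the zinc importer of the gut, had 36.5, 40.8 and 38.6 CPM in N1300T 49, 38.4, 43.96 and 37.8 CPM in N1300T 81 and 39.6, 37.7 and 41.1 CPM in DKO, against 51.04, 51.9 and 49.4 CPM in Tet1KO. All N1300T and DKO libraries were below Tet1KO, with changes of -0.37 ± 0.06 (adjusted p = 0.000444) in N1300T and -0.40 ± 0.07 (adjusted p = 0.00104) in DKO. Slc39a4 and Slc52a2, a riboflavin transporter, lie 64504 bases apart, and Slc52a2 was at 0.10 ± 0.06 (adjusted p = 0.339) and 0.06 ± 0.07 (adjusted p = 0.628). Slc39a1, ZIP1, averaged 79.1 ± 3.14 CPM in N1300T 49, 80.2 ± 3.50 CPM in N1300T 81 and 73.7 ± 0.492 CPM in DKO, against 65.2 ± 1.60 CPM in Tet1KO, a rise of 0.28 ± 0.05 (adjusted p = 0.000944) in N1300T, with 0.14 ± 0.06 (adjusted p = 0.120) in DKO. Slc31a1, the copper importer CTR1, rose in N1300T by 0.15 ± 0.05 (adjusted p = 0.0492), a call lost without any 1 of 10 libraries, among them Tet1KO A, B and C. Among 9 other zinc and iron genes, such as metallothioneins and the transferrin receptor, none was called by edgeR or DESeq2 in N1300T against Tet1KO (4 were lower at an unadjusted p under 0.05) and Steap3, a ferrireductase, was lower in DKO (-0.68 ± 0.21, adjusted p = 0.0330).

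**Figure D3:**
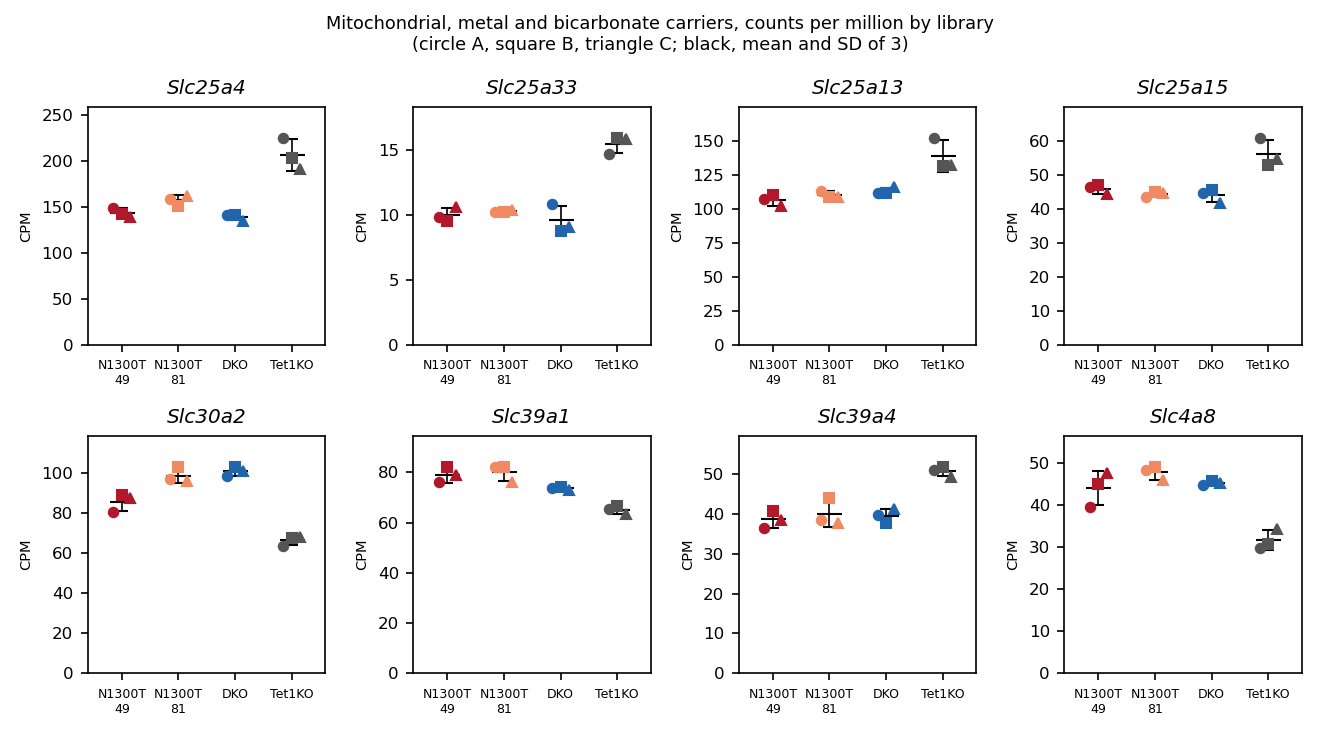
CPM of 4 mitochondrial carriers, 3 zinc transporters and the bicarbonate exchanger Slc4a8 in each library, by group, with the mean and SD of 3 libraries. The 4 mitochondrial carriers and Slc39a4 are lowest in N1300T and DKO, and Slc30a2, Slc39a1 and Slc4a8 are lowest in Tet1KO.

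Among 22 carriers of ions and acid equivalents, 2 were higher and 1 lower in N1300T and 3 were higher in DKO, with class medians of 0.07 and 0.03. The DKO rises numbered 5 without N1300T 49 C, and without Tet1KO C the falls numbered 2 in N1300T and 1 in DKO. With all libraries no DKO fall was called by DESeq2 or by edgeR with low genes filtered out, and 0 had an unadjusted p under 0.05. Without that filter edgeR called 5 DKO rises and 1 fall. Slc4a8 (chr15:100761747-100823971), the sodium-driven chloride/bicarbonate exchanger that raises intracellular pH, had 39.6, 44.99 and 47.6 CPM in N1300T 49, 48.4, 49.1 and 45.8 CPM in N1300T 81 and 44.7, 45.7 and 45.3 CPM in DKO, against 29.8, 30.7 and 34.4 CPM in Tet1KO. Every N1300T and DKO library exceeded every Tet1KO one, with changes of 0.53 ± 0.06 (adjusted p = 2.08e-05) and 0.48 ± 0.07 (adjusted p = 0.000244). Slc8a2, the sodium/calcium exchanger NCX2, had 6.09, 6.90 and 8.03 CPM in N1300T 49, 6.06, 6.42 and 6.20 CPM in N1300T 81 and 7.29, 6.96 and 6.56 CPM in DKO, against 4.52, 4.72 and 4.29 CPM in Tet1KO. It too showed no overlap, with 0.54 ± 0.11 (adjusted p = 0.00186) and 0.58 ± 0.12 (adjusted p = 0.00285). Families with no call in N1300T or DKO included the cation-chloride cotransporters of SLC12 (6 members, -0.01 to 0.16 in N1300T and -0.20 to 0.25 in DKO) and the sodium/proton exchangers of SLC9 (5 members, -0.29 to 0.16 in N1300T and -0.32 to 0.09 in DKO), by edgeR and by DESeq2. At an unadjusted p under 0.05 there was 1 SLC12 member in each comparison and 1 SLC9 member in N1300T. Family calls under other edgeR settings are not given here. Slc26a2, a sulfate transporter, was higher in DKO (0.31 ± 0.08, adjusted p = 0.0156), a call lost without DKO A, DKO C, Tet1KO A or Tet1KO B.

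Vitamin and lipid carriers numbered 13, of which 3 were higher and 2 lower in N1300T and 2 were higher and 1 lower in DKO. Without Tet1KO A the N1300T counts were 1 higher and 1 lower. The DKO counts were 4 higher without Tet1KO C and 2 lower without DKO B, and the 1 DKO fall was lost without DKO A. Without Tet1KO C the N1300T falls numbered 1. The medians were 0.10 and 0.12. Slc19a2, a thiamine transporter, had 109, 107 and 122 CPM in N1300T 49, 101, 98.5 and 116 CPM in N1300T 81 and 129, 125 and 130.4 CPM in DKO, against 84.3, 89.2 and 105 CPM in Tet1KO. DKO was above all other groups, at 0.43 ± 0.08 (adjusted p = 0.00101) against Tet1KO, and N1300T was 0.22 ± 0.07 (adjusted p = 0.0287) with overlap, a call lost without Tet1KO A, Tet1KO B, N1300T 49 C or N1300T 81 C. Slc19a1, the reduced folate carrier of the same family, averaged 23.6 ± 1.62 CPM in N1300T 49, 23.1 ± 1.25 CPM in N1300T 81 and 24.3 ± 1.62 CPM in DKO, against 27.5 ± 0.533 CPM in Tet1KO, and fell in N1300T (-0.24 ± 0.07, adjusted p = 0.0172), though not without Tet1KO A or C. Slc5a6, which takes up biotin and pantothenate, averaged 48.9995 ± 3.43 CPM in N1300T 49, 53.2 ± 4.15 CPM in N1300T 81 and 54.6 ± 1.66 CPM in DKO, against 42.3 ± 2.14 CPM in Tet1KO, with rises of 0.26 ± 0.06 (adjusted p = 0.00605) in N1300T, lost without Tet1KO A, and 0.33 ± 0.07 (adjusted p = 0.00360) in DKO. Slc23a2, the vitamin C transporter SVCT2, which supplies a cofactor of TET enzymes, averaged 55.999 ± 3.82 CPM in N1300T 49, 56.7 ± 1.56 CPM in N1300T 81 and 57.05 ± 0.999 CPM in DKO, against 66.4 ± 1.85 CPM in Tet1KO. It fell by 0.24 ± 0.05 (adjusted p = 0.00411) in N1300T and by 0.26 ± 0.06 (adjusted p = 0.00861) in DKO, the DKO call being lost without DKO A. Slc27a2, a fatty acid transporter and acyl-CoA synthetase, had 22.4, 18.8 and 23.1 CPM in N1300T 49, 20.2, 17.9 and 21.7 CPM in N1300T 81 and 17.4, 16.3 and 18.2 CPM in DKO, against 12.1, 13.7 and 16.8 CPM in Tet1KO. N1300T libraries were all above Tet1KO, with a rise of 0.53 ± 0.10 (adjusted p = 0.00117), and DKO was 0.24 ± 0.11 (adjusted p = 0.153) with overlap.

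Sugar, phosphate and organic anion carriers were few. Both phosphate importers of the SLC20 family fell: Slc20a1 averaged 151 ± 0.856 CPM in N1300T 49, 152 ± 3.62 CPM in N1300T 81 and 154 ± 6.48 CPM in DKO, against 168 ± 5.41 CPM in Tet1KO, and Slc20a2 averaged 103 ± 3.25 CPM in N1300T 49, 111 ± 1.64 CPM in N1300T 81 and 109 ± 1.65 CPM in DKO, against 120.3 ± 4.56 CPM in Tet1KO. Their changes were -0.15 ± 0.05 (adjusted p = 0.0297) and -0.18 ± 0.05 (adjusted p = 0.0128) in N1300T and -0.16 ± 0.05 (adjusted p = 0.0456) and -0.18 ± 0.05 (adjusted p = 0.0297) in DKO, but neither fall was called without Tet1KO A. The Slc20a1 calls were lost without any 1 of 6 libraries in N1300T and of 8 in DKO. The DKO call of Slc20a2 was lost without any 1 of 5 libraries and with library size alone. Slc20a2 lies on chromosome 8, 78078 bases from Slc25a15, and was at -0.07 and -0.08 with each chromosome scaled on its own, no longer called. Slc37a1, an exchanger of glucose 6-phosphate for phosphate in the endoplasmic reticulum, had 20.8, 24.2 and 18.9 CPM in N1300T 49, 24.6, 25.8 and 19.3 CPM in N1300T 81 and 18.3, 19.4 and 18.8 CPM in DKO, against 14.7, 17.4 and 11.2 CPM in Tet1KO. N1300T was above Tet1KO in all libraries (0.62 ± 0.13, adjusted p = 0.00257), and DKO, also without overlap, was 0.35 ± 0.14 (adjusted p = 0.113). Slc5a11, a myo-inositol transporter, averaged 11.3 ± 1.70 CPM in N1300T 49, 9.99 ± 0.368 CPM in N1300T 81 and 10.02 ± 0.664 CPM in DKO, against 8.01 ± 0.974 CPM in Tet1KO, and was 0.40 ± 0.10 (adjusted p = 0.0119) in N1300T, lost without Tet1KO A, and 0.28 ± 0.11 (adjusted p = 0.112) in DKO. In the class of 6 sugar and polyol carriers the median was 0.22 in both comparisons, with 2 called in N1300T and 0 in DKO, where 3 had an unadjusted p under 0.05 and DESeq2 called 1. The second N1300T rise was that of Slc45a4, at 0.23 ± 0.07 (adjusted p = 0.0366), lost without any 1 of 7 libraries, and Slc18b1, a vesicular polyamine transporter, rose in N1300T at 0.24 ± 0.08 (adjusted p = 0.0479), lost without any 1 of 9. Slc50a1, a sugar transporter of the SWEET family, was at 0.27 ± 0.10 (adjusted p = 0.0689) in DKO.

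Of 6 carboxylate and organic ion carriers, 2 were higher and 1 lower in N1300T and 1 was higher in DKO. Slc22a17, the lipocalin-2 receptor involved in iron delivery, had 10.4, 11.95 and 14.7 CPM in N1300T 49, 11.99, 17.04 and 14.6 CPM in N1300T 81 and 14.1, 12.98 and 13.2 CPM in DKO, against 7.22, 10.9 and 8.06 CPM in Tet1KO. Its rises were 0.60 ± 0.14 (adjusted p = 0.00551) in N1300T, with overlap and lost without Tet1KO A, and 0.58 ± 0.15 (adjusted p = 0.0166) in DKO, lost without DKO A, Tet1KO A or Tet1KO C. Slc16a13, a monocarboxylate transporter on chromosome 11, was 0.46 ± 0.09 (adjusted p = 0.00214) in N1300T and 0.30 ± 0.10 (adjusted p = 0.0559) in DKO. These values were 0.36, still called, and 0.22 with each chromosome scaled on its own. Among 27 carriers of nucleotide sugars, nucleosides and related cofactors, 2 were higher and 1 lower in N1300T and 3 were higher in DKO. No DKO fall was called by edgeR or DESeq2, and 1 had an unadjusted p under 0.05. Slc35e4, an orphan member of the nucleotide sugar transporter family, had 10.1, 10.99 and 13.4 CPM in N1300T 49, 10.8, 9.92 and 11.5 CPM in N1300T 81 and 12.5, 13.5 and 12.3 CPM in DKO, against 7.50, 7.73 and 7.84 CPM in Tet1KO. No library of N1300T or DKO overlapped with Tet1KO, and the changes were 0.52 ± 0.10 (adjusted p = 0.00109) and 0.69 ± 0.11 (adjusted p = 0.000300). Slc35e4 lies on chromosome 11, where Tet1KO libraries ran low as a whole. Its changes were 0.43 and 0.61, both still called, with each chromosome scaled on its own. Slc29a4, a monoamine and adenosine transporter, averaged 8.996 ± 1.76 CPM in N1300T 49, 8.64 ± 1.30 CPM in N1300T 81 and 11.5 ± 0.420 CPM in DKO, against 7.21 ± 2.15 CPM in Tet1KO, and Slc33a1, the acetyl-CoA transporter of the endoplasmic reticulum, was also higher in DKO. They changed by 0.64 ± 0.17 (adjusted p = 0.0163) and 0.39 ± 0.11 (adjusted p = 0.0209) in DKO, and each call was lost without DKO C or Tet1KO B, among others. In the class, DKO rises numbered 1 without DKO C or without Tet1KO B. Slc29a2, the nucleoside transporter ENT2, was the N1300T fall, at -0.23 ± 0.07 (adjusted p = 0.0300), lost without any 1 of 6 libraries, among them Tet1KO A, B and C.

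N1300T and DKO were compared directly to ask where the altered enzyme differs from its absence. Of the 155 members 7 were called (4.52%), 2 higher and 5 lower in N1300T, beside 3.73% of all tested genes (1.7% higher, 2.02% lower) and 4.57% of those of 5 CPM or more. At an unadjusted p under 0.05 there were 35. Some members were not called but had the smallest adjusted p of their class. They were Slc25a30 (-0.27, adjusted p = 0.0668), Slc27a3 (-0.31, adjusted p = 0.0776), Slc37a1 (0.27, adjusted p = 0.217) and Slc50a1 (-0.18, adjusted p = 0.234). Without DKO C edgeR called 0 members (23 had an unadjusted p under 0.05), without DKO A it called 2 and without DKO B 3. Without N1300T 49 C 11 members were called, and DESeq2 called 15 on all libraries. Shares of all tested genes called in these alternative runs were not computed, so their counts show nothing particular to the members.

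Slc35c1 (chr2:92452764-92460518), the Golgi carrier of GDP-fucose used for fucosylation of glycoproteins, was 1 of the 2 higher members. It had 18.5, 22.3 and 19.96 CPM in N1300T 49, 31.9, 32.1 and 29.4 CPM in N1300T 81 and 19.5, 20.04 and 17.8 CPM in DKO, against 16.5, 18.9 and 18.2 CPM in Tet1KO. The libraries of preparation 81 stood above all others, whereas those of preparation 49 overlapped with DKO and Tet1KO. N1300T differed from DKO by 0.43 ± 0.08 (adjusted p = 0.00498) and from Tet1KO by 0.48 ± 0.08 (adjusted p = 0.000328). Preparation 49 differed from preparation 81 by -0.61 ± 0.09 (adjusted p = 0.00126), a call that held under every alternative run. Against Tet1KO, preparation 49 was 0.18 ± 0.09 (adjusted p = 0.218) and preparation 81 was 0.79 ± 0.09 (adjusted p = 1.22e-05), and DKO was 0.06 ± 0.09 (adjusted p = 0.727). Slc39a11, a zinc transporter of the ZIP family, had 37.3, 38.7 and 35.03 CPM in N1300T 49, 46.04, 45.9 and 39.5 CPM in N1300T 81 and 33.4, 32.1 and 31.3 CPM in DKO, against 33.3, 37.2 and 36.6 CPM in Tet1KO. N1300T libraries were all above DKO, with a difference of 0.35 ± 0.07 (adjusted p = 0.00759), while against Tet1KO N1300T and DKO were at 0.17 ± 0.07 (adjusted p = 0.0944) and -0.18 ± 0.08 (adjusted p = 0.116). Slc39a11 overlaps Cog1, which averaged 56.0 CPM, and Sstr2, so part of its reads cannot be told apart from theirs. The N1300T against DKO calls of Slc35c1 and Slc39a11 were lost without DKO C.

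Lower in N1300T than in DKO were Slc4a11, Slc16a6, Slc4a5, Slc38a6 and Slc7a7. Slc4a5, an electrogenic sodium bicarbonate cotransporter on chromosome 6, had 10.9, 14.2 and 16.98 CPM in N1300T 49, 18.6, 18.05 and 17.1 CPM in N1300T 81 and 22.8, 20.4 and 19.8 CPM in DKO, against 22.9, 24.8 and 21.03 CPM in Tet1KO. It was -0.38 ± 0.10 (adjusted p = 0.0486) in N1300T against DKO and -0.54 ± 0.10 (adjusted p = 0.00141) against Tet1KO, both without overlap, and -0.17 ± 0.12 (adjusted p = 0.382) in DKO against Tet1KO. Scaling each chromosome on its own gave -0.41 in N1300T, still called, and -0.02 in DKO against Tet1KO. Slc16a6, a member of the monocarboxylate transporter family linked in zebrafish to ketone body export, had 8.24, 7.38 and 7.87 CPM in N1300T 49, 8.98, 10.4 and 11.8 CPM in N1300T 81 and 11.9, 11.7 and 13.01 CPM in DKO, against 11.7, 13.3 and 14.3 CPM in Tet1KO. Preparation 49 lay below every DKO and Tet1KO library and preparation 81 reached both. The differences were -0.40 ± 0.09 (adjusted p = 0.0215) from DKO and -0.54 ± 0.09 (adjusted p = 0.000652) from Tet1KO, with -0.74 ± 0.11 in preparation 49 and -0.35 ± 0.11 in preparation 81 against Tet1KO. Slc16a6 lies on chromosome 11, and scaling each chromosome on its own gave -0.64 in N1300T and -0.22 in DKO against Tet1KO.

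Slc4a11, a transporter of the corneal endothelium, had 22.2, 25.99 and 34.9 CPM in N1300T 49, 24.7, 27.1 and 37.5 CPM in N1300T 81 and 39.2, 39.7 and 41.9 CPM in DKO, against 27.8, 29.004 and 31.9 CPM in Tet1KO. DKO was highest, at 0.41 ± 0.14 (adjusted p = 0.0585) against Tet1KO, and N1300T lay at -0.46 ± 0.12 (adjusted p = 0.0396) from DKO and -0.05 ± 0.12 (adjusted p = 0.817) from Tet1KO. Slc38a6 had 10.9, 10.9 and 10.7 CPM in N1300T 49, 8.82, 10.3 and 10.2 CPM in N1300T 81 and 14.6, 12.9 and 13.4 CPM in DKO, against 9.80, 10.9 and 10.99 CPM in Tet1KO. DKO libraries were above all others, and N1300T differed from them by -0.37 ± 0.08 (adjusted p = 0.0149) but from Tet1KO by -0.04 ± 0.08 (adjusted p = 0.777). Slc7a7 likewise lay at -0.33 ± 0.07 (adjusted p = 0.0196) in N1300T against DKO. For Slc38a6 and Slc7a7 the libraries of N1300T and DKO did not overlap. The calls of Slc4a5 and Slc4a11 were each lost without any 1 of 8 libraries (adjusted p 0.000519 to 0.247 and 7.78e-08 to 0.210), those of Slc16a6 and Slc7a7 without any DKO library, and that of Slc38a6 without DKO A or C.

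**Figure D4:**
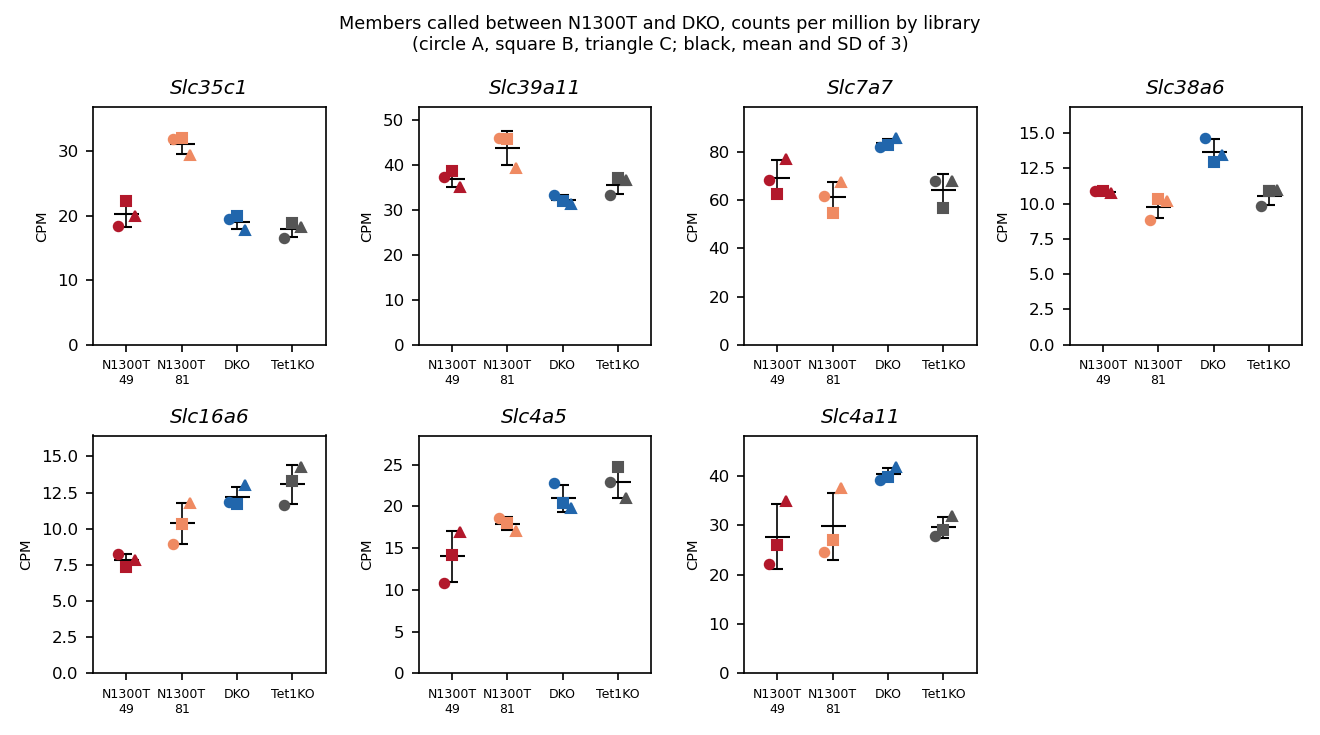
CPM of the 7 members called between N1300T and DKO in each library, by group, with the mean and SD of 3 libraries. Slc35c1 is high in preparation 81 alone among the 4 groups, Slc39a11 is lowest in DKO, and Slc7a7, Slc38a6 and Slc4a11 are highest in DKO.

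Between the preparations, 49 and 81, the 2 calls were Slc35c1 and Slc38a4, both lower in 49, and 18 members had an unadjusted p under 0.05. Beside them, the primitive endoderm factor Gata4 was higher in 49 (1.35 ± 0.18, adjusted p = 0.00107). Solute carriers under other names, listed with earlier results known, gave 3 higher and 3 lower of 23 tested in N1300T against Tet1KO and 3 higher and 2 lower in DKO. Sfxn3, a mitochondrial sideroflexin, had 15.1, 18.8 and 16.3 CPM in N1300T 49, 19.9, 22.3 and 17.9 CPM in N1300T 81 and 18.6, 16.96 and 18.4 CPM in DKO, against 10.3, 11.6 and 8.06 CPM in Tet1KO. All N1300T and DKO libraries exceeded Tet1KO, at 0.87 ± 0.11 (adjusted p = 4.84e-05) and 0.81 ± 0.13 (adjusted p = 0.000314). Mfsd2a, a transporter of lysophosphatidylcholine, was at 0.91 ± 0.20 (adjusted p = 0.00523) and 1.05 ± 0.22 (adjusted p = 0.00419), and Sfxn1, a mitochondrial serine carrier, at -0.20 ± 0.05 (adjusted p = 0.00592) and -0.19 ± 0.05 (adjusted p = 0.0273).

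Many plasma membrane members draw on the sodium gradient kept by the sodium-potassium pump. Of its 8 subunit and regulator genes 1 was higher and 1 lower in each comparison with Tet1KO. Atp1b1, the beta 1 subunit, had 78.1, 90.98 and 84.5 CPM in N1300T 49, 90.6, 96.7 and 79.9 CPM in N1300T 81 and 84.5, 82.8 and 87.7 CPM in DKO, against 108, 121 and 113 CPM in Tet1KO. It was below Tet1KO in all N1300T and DKO libraries, at -0.40 ± 0.06 (adjusted p = 0.000287) and -0.47 ± 0.07 (adjusted p = 0.000369). Fxyd5, a regulator of the pump, was at 1.51 ± 0.21 (adjusted p = 9.26e-05) and 1.46 ± 0.23 (adjusted p = 0.000340), with 1.42 to 2.17 CPM in N1300T and 1.60 to 1.85 CPM in DKO, against 0.486 to 0.829 CPM in Tet1KO. Among 7 partner subunits and chaperones, 1 was higher and 1 lower in N1300T and 1 was higher in DKO, the fall in N1300T and the rise in DKO being lost without Tet1KO A. Slc9a3r2, the scaffold NHERF2, was at 0.53 ± 0.09 (adjusted p = 0.000708) and 0.37 ± 0.10 (adjusted p = 0.0236), and Emb, a partner of monocarboxylate transporters, at -0.20 ± 0.06 (adjusted p = 0.0216) in N1300T. Of the carriers left out by name, 14 were tested. In N1300T 7 were lower than in Tet1KO, and in DKO 1 was higher and 8 were lower, numbers that became 5 lower in N1300T and 1 higher and 3 lower in DKO without Tet1KO A. Slc38a5, a glutamine carrier, changed most in DKO (-5.31 ± 0.58, adjusted p = 1.10e-05), and Slc15a2, a peptide transporter, was at -2.97 ± 0.22 (adjusted p = 1.14e-07) in N1300T and -2.67 ± 0.22 (adjusted p = 8.49e-07) against DKO.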

How the data were processed

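Total RNA of 12 libraries was read from both ends, by the labels' protocols. The authors deposited 1 table of raw counts per gene symbol. The submitters' processing notes name the build mm10 and the tool DESeq2, and the aligner, the counter and the use of strand are each not given in the sources used here. Counts of 1 were rarer (5990 values) than counts of 2 (20282), and counts of 3 (3467) rarer than counts of 4 (9469), so mates of a pair may have been counted singly, and halved counts were tried as an alternative.

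Groups came from the title and genotype labels. The counts were fitted with edgeR 4.0.16 in R 4.3.3 (quasi-likelihood test, TMM scaling, low genes removed by filterByExpr, all 12 libraries, no covariates), and p-values were adjusted by Benjamini-Hochberg over 16014 tested genes, which hold 99.97% of the counts. All 155 members were tested, with at least 123 counts in every library. Values after ± are SDs over 3 libraries for CPM and standard errors for log2 fold changes. These standard errors were worked back from the test, as the absolute log2 fold change over the square root of its F statistic. N1300T is the mean of both preparations. No label says that a replicate letter marks a shared culture or day. Deviations of same-letter libraries correlated above 0.1 at all 3 letters between preparation 81 and Tet1KO (0.132, 0.284 and 0.312) and in no other pair of groups. The spread was shared by the groups, with a common biological coefficient of variation of 0.0859 and 8 residual degrees of freedom. Alternatives were DESeq2 1.42.0, RLE factors, library size alone, no filter, a replicate block, halved counts, scaling of each chromosome on its own and leaving out each library, 19 in all. Named genes are the 10 largest called rises and falls of each comparison, the member of smallest adjusted p in each of 9 substrate classes (in N1300T and DKO against Tet1KO and in N1300T against DKO), members called between preparations, those beside the minimum, and some called genes of each other list, not always those of smallest adjusted p, with further members of a class named after their values were seen. The results of 1 member that this rule names are not reported here. Members and lists were chosen with earlier results of these data known. Positions, promoters and chromosomes are from RefSeq (GRCm38.p6, the mm10 assembly), matched by symbol, and exon lengths from GENCODE M21.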

Additional observations from a re-analysis of the deposited data

Results flagged for a closer look

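In 3 of 36 named members 1 of the 6 N1300T libraries lay far from the others, by a gap test whose chance rate is about 1 in 20 groups. Slc5a11, a myo-inositol transporter, had 13.3 CPM in N1300T 49 C, a gap of 0.802 of the range of the 6 libraries. Slc43a2, a carrier of large neutral amino acids, had 12.6 CPM in N1300T 49 A, the lowest of the 6, with a gap of 0.739 of the range. Slc38a6 had 8.82 CPM in N1300T 81 A, again the lowest, with a gap of 0.662.

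The change against Tet1KO differed between N1300T and DKO in 7 members, by the test of that difference. The log2 difference, N1300T minus DKO, was 0.43 for Slc35c1 and 0.35 for Slc39a11. It was -0.46 for Slc4a11, -0.40 for Slc16a6, -0.38 for Slc4a5, -0.37 for Slc38a6 and -0.33 for Slc7a7. None of the 7 held without DKO C by edgeR, where 23 members had an unadjusted p under 0.05. Without DKO A 2 members were called and without DKO B 3. Whether these losses came from a given library or from the smaller DKO group was not tested. Between preparations, 49 minus 81, the difference was -0.61 for Slc35c1 and -0.37 for Slc38a4, and both calls held under all 19 alternatives.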

How the results depend on the processing

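No member reversed its direction under any of the 19 alternatives among 57 named pairs of member and comparison. Leaving out 1 library moved the members called to 24 to 39 in N1300T against Tet1KO (39 with all libraries), 19 to 35 in DKO against Tet1KO (31), 0 to 11 in N1300T against DKO (7), 2 to 2 between preparations, 20 to 32 for preparation 49 and 19 to 31 for preparation 81 against Tet1KO. The lowest counts came without Tet1KO A in N1300T against Tet1KO and in both single preparations, also without N1300T 81 B in preparation 81, and without DKO C where DKO was compared. Calls held in every alternative for 23 of 39 members in N1300T, 17 of 31 in DKO, 0 of 7 between N1300T and DKO and 2 of 2 between preparations. N1300T against DKO gave 19 calls with no filter on low counts (10 higher, 9 lower) and 15 with DESeq2, and preparation 49 against 81 gave 4 with each. Library size alone gave 24 higher and 10 lower in DKO against Tet1KO, beside 17 and 14. Scaling each chromosome on its own gave 39 calls in N1300T and 32 in DKO, and the cause of the other moves was not tested. Besides preparation 81 with Tet1KO, same-letter libraries correlated in their deviations at 0.08 to 0.20 between preparation 49 and Tet1KO, at 0.07 to 0.24 between the preparations and at -0.04 to 0.04 with DKO. With the letters as a replicate block, calls numbered 37 for preparation 81 against Tet1KO (27 without it), 49 in N1300T and 46 in DKO against Tet1KO, 22 in N1300T against DKO and 4 between preparations. Shares of all tested genes under the alternatives were not computed, so the counts of this section show nothing particular to the members. Members had at least 123 counts in each library, so counting error weighs most on those near the minimum level.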
